A study of Oryctolagus cuniculus with 6 samples.

Results

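The regions described here are stretches of rabbit chromosomes that held an accessible chromatin peak in all 3 naive corneas and in none of 3 alkali-burned corneas. They were found by pooling the 6 deposited peak lists, joining peaks that shared at least 1 bp, and holding to chromosomes 1 to 21. Of 26220 joined regions, 16249 lay on these chromosomes and 2113 met the rule, which is 13.0% of the chromosomal regions. The reverse pattern, a peak in all 3 burned and in no naive cornea, occurred at 3 of the 16249 (0.0185%). These counts are set by the rule and were taken from lists of unequal length. The part of list length in them was not tested. The absence of a peak does not show that the DNA was inaccessible. The naive-only regions had a median width of 528 bp and were mostly made of 1 peak per cornea. Their summits lay close together in different corneas. The regions occurred on every chromosome. Few had another naive-only region within 10 kb, while 32.3% had one within 100 kb.

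ATAC-seq uses a transposase that cuts and tags DNA where it is not wrapped tightly on nucleosomes, so that reads pile up at open promoters, enhancers and other regulatory DNA. The highest point of such a pile, the summit, usually marks the stretch between nucleosomes where proteins bind. The cornea is built of a surface epithelium, a collagen-rich stroma with keratocytes, and an inner endothelium, and alkali is known to injure all of them and to draw in immune cells and myofibroblasts. In whole tissue, a peak that is missing after injury can reflect fewer cells of a type or less accessible DNA per cell. It can also follow from a library that gave a shorter list. The lists cannot tell these apart. No gene annotation or sequence of the build OryCun2.0 was used, so genes near the regions, cell type markers and base sequences were not analysed here.

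All 6 corneas came from female rabbits, were labelled as cornea and carry the time label day 14. The burned eyes had received a disc of 8 mm soaked in sodium hydroxide for 30 s, at 0.5 N according to the treatment protocol and 1 N according to the sample characteristics. The naive corneas had no treatment, and the protocol names the unexposed eye of a burned rabbit as the control, so their own animals carried an injury in the other eye. The library numbers are not tied to animals in the labels. P-values therefore measure only the spread between these corneas.

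The number of tags expected at a position by chance, called here the genome background, was taken as the lowest background solved for any peak of a list. As the lists give no read counts, the genome background is not by itself a measure of library depth. It was 2.77 tags in naive library 1, 1.79 in naive library 2 and 1.80 in naive library 3, and it ranged from 1.83 to 2.11 tags over the burned libraries. Naive library 2 had by far the most peaks on chromosomes 1 to 21 (14699), against 4026 in naive library 1 and 4910 in naive library 3. The burned libraries had 377, 303 and 1094 there, in the order of their numbers. With X and unplaced scaffolds included, the naive lists held 8808, 21184 and 8416 peaks and the burned lists 2408, 2319 and 4406. The burned lists thus had a smaller part of their peaks on chromosomes 1 to 21, and the cause was not tested. The number of naive-only regions was limited mainly by naive library 1. Without it, 3806 regions had a peak in both other naive libraries and in no burned one. Each list was also cut to the same length, the 2319 most significant peaks over all sequences, X and unplaced scaffolds included. Then 465 regions met the rule, of which 335 were among the 2113 and the other 130 overlapped a burned peak of the full lists. The cut lists still differed in length on chromosomes 1 to 21. Burned library 2 was uncut and had 303 peaks there, fewer than the 465 regions held by each naive list.

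The 2113 regions were short stretches, though not the shortest among similar classes. The median joined width was 685 bp for regions with 1 burned peak and 416 bp for those with 2 or 3, burned peaks included. It was 503 bp for naive-only regions on unplaced scaffolds. The 2113 lay between these. Their joined width had a median of 528 bp, with quartiles of 437 and 643 bp and extremes of 231 and 1132 bp, and together they covered 1169 kb. At 1242 regions (58.8%) the joined region was no wider than its widest peak. The widest peak was most often that of naive library 2 (1818 regions), which contained the whole peak of naive library 1 at 1551 regions and that of naive library 3 at 1497. The median peak width at these regions was 302, 503 and 333 bp in naive libraries 1, 2 and 3. Naive library 2 thus set the outer edges of most regions, and the other libraries marked a shorter stretch within them.

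Most regions were simple in structure. At 1992 of 2113 (94.3%, 95% Wilson interval 93.2 to 95.2) each naive library had exactly 1 peak. The other 121 had 2 or more peaks in at least 1 library, which happened at 50, 22 and 65 regions in naive libraries 1, 2 and 3. Taking the highest peak of each library, 2074 regions had a stretch common to all 3 naive peaks, with a median length of 253 bp. All 3 summits lay inside this common stretch at 1824 regions (86.3%). At 39 regions the highest peaks of the 3 libraries had no common base, so that the region was a chain of neighbouring peaks.

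The 5 widest regions were built in different ways. The widest, chromosome 7 at 151000280 to 151001411 (1132 bp), was spanned by 1 peak of naive library 2, with shorter peaks in naive libraries 1 and 3 (499 and 464 bp), and the summits of the 3 libraries were spread over 594 bp. Chromosome 1 at 47431066 to 47432184 (1119 bp) held 2 peaks each in naive libraries 1 and 3 under 1 peak of naive library 2. Chromosome 17 at 44166942 to 44168058 (1117 bp) held 3 peaks in naive library 3. By contrast, chromosome 2 at 28837450 to 28838563 (1114 bp) had 1 wide peak in each library (753, 1114 and 610 bp) and summits within 83 bp. Chromosome 15 at 37216565 to 37217665 (1101 bp) had summits within 96 bp, with 2 peaks in naive library 3. The fold over local background in these 5 regions was moderate, with means over the naive libraries between 4.89 and 6.24.

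The height of a peak is given by the authors' fold, which sets the tags of the summit over those expected from its surroundings. At the naive-only regions the median fold was 4.60 in naive library 1 (10% to 90% range 3.67 to 6.02), 7.36 in naive library 2 (5.28 to 9.73) and 5.78 in naive library 3 (4.39 to 7.77). The median summit held 21, 32 and 21 tags. A count of 21 has an exact 95% Poisson interval of 13.0 to 32.1 and a count of 32 one of 21.9 to 45.2, which cover counting error only, so neighbouring regions in the order of fold are not separated within a library. Naive library 2 had the highest fold at 1810 regions and naive library 1 the lowest at 1812. The full order, naive library 2 above 3 above 1, held at 1553 regions (73.5%).

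**Figure D1:**
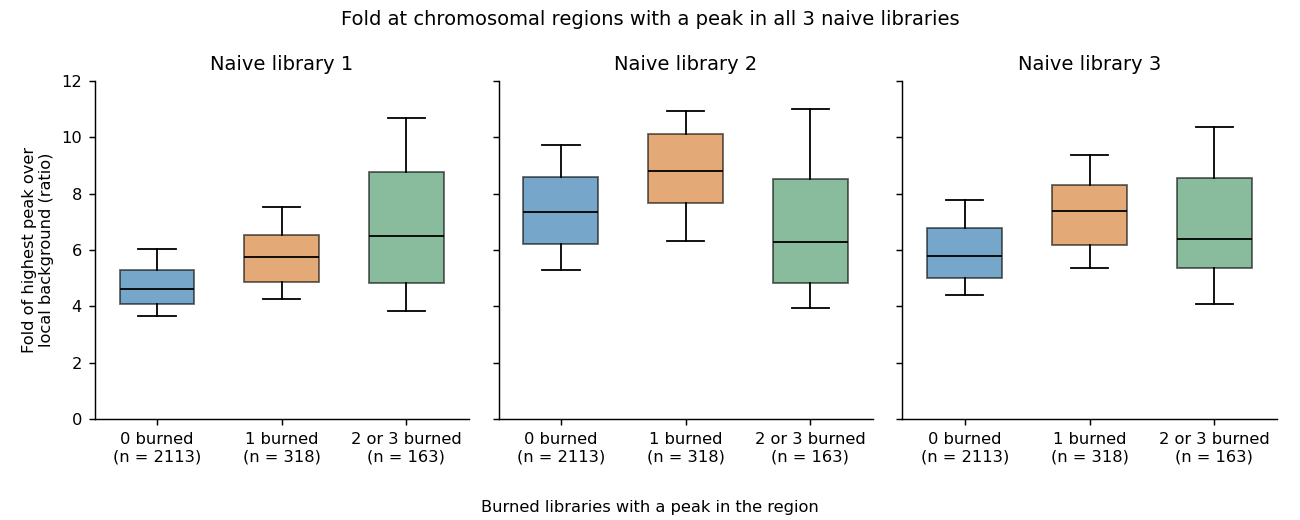
Fold of the highest peak (y axis, ratio to local background) in each naive library at regions with a peak in all 3 naive libraries, split by how many burned libraries had a peak there (x axis). Boxes span the quartiles with the median as a line and whiskers reach the 10% and 90% points over regions. The medians of the naive-only regions are 4.60, 7.36 and 5.78 and lie below those of the regions with 1 burned peak in each library.

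Among the 2594 chromosomal regions with a peak in all 3 naive libraries, 2113 (81.5%, Wilson interval 79.9 to 82.9) were naive-only, 318 had a peak in exactly 1 burned library and 163 in 2 or 3. The burned peak at the 318 regions came from burned library 3 in 315 cases. The naive-only share moved when single libraries were left out and was 93.6% without burned library 3 and 88.3% without naive library 1, and it was 88.0% where peaks had to cover 50% of a region. The naive-only regions were the lower ones on average. Their median fold was below that of all 481 regions with any burned peak in each naive library, with differences of -1.33, -0.857 and -1.33 and a mean of -1.17 ± 0.273 (SD, n = 3). All 3 libraries showed this direction (exact two-sided sign-flip test, p = 0.25, the smallest that 3 libraries allow). Height decides whether a peak is called, and calling sets the classes, so this difference is a description. Without burned library 3 the difference was -0.188 (exact p = 0.75).

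The regions with burned peaks were themselves of different kinds. Against the 318 regions with 1 burned peak, the naive-only regions had lower medians of fold in every naive library (4.60, 7.36 and 5.78 against 5.76, 8.81 and 7.37), with a mean difference of -1.40 ± 0.217 (SD, n = 3, exact p = 0.25). Their peaks were also narrower (302, 503 and 333 against 445, 642 and 477 bp). The mean difference was -142 ± 2.36 bp (exact sign-flip p = 0.25). Width moves with height, and a wider naive peak has more room to overlap a burned peak and so to leave the class. The differences in fold and width therefore describe the classes, and their tests are no independent support. Against the 163 regions with 2 or 3 burned peaks there was no common direction. There the median folds were nearly equal in the 3 naive libraries, at 6.50, 6.29 and 6.39, whereas those of the naive-only regions ranged from 4.60 to 7.36. In naive library 2 the naive-only regions had the higher fold and the wider peaks (503 against 311 bp), and in naive library 1 the lower fold and the narrower peaks (302 against 345 bp). The mean differences were -0.48 in fold and 58.3 bp in width (exact p = 0.75 each). The difference in width from all 481 regions, -93.7 ± 26.5 bp (exact p = 0.25), therefore turned with the choice of comparison and was 74.7 bp without burned library 3.

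On unplaced scaffolds, 573 of 9580 regions (5.98%) had the same pattern of 3 naive and 0 burned peaks. The chromosomal regions had slightly higher median folds than these in all 3 naive libraries, by 0.348, 0.695 and 0.589, and slightly wider peaks, by 12, 28 and 15 bp (exact sign-flip p = 0.25 for each measure). The median summit heights were nearly equal, at 21, 32 and 21 tags against 23, 31 and 21, while the local background was 3.66, 3.40 and 2.68 tags on chromosomes and 4.46, 3.82 and 3.16 tags on scaffolds. The part of this higher local background in the lower fold of the scaffold regions was not tested. In structure both sets were simple, with 1 peak per naive library at 94.3% and 95.1% of regions.

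The 5 regions with the highest mean rank of fold in the 3 naive libraries stood on 5 different chromosomes. Chromosome 3 at 106705091 to 106705624 (534 bp) had folds of 7.66, 13.6 and 9.86 in naive libraries 1, 2 and 3, with 33, 57 and 42 tags at the summit. Chromosome 12 at 57126847 to 57127394 (548 bp) had folds of 8.79, 13.3 and 9.51. Chromosome 8 at 24803431 to 24803998 (568 bp) had folds of 9.38, 11.2 and 9.32, the closest agreement of the 5 (9.98 ± 1.10, mean ± SD, n = 3). In each of these the naive libraries were all far above the medians of the class.

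Chromosome 14 at 126701503 to 126702069 (567 bp) followed with folds of 6.91, 12.1 and 9.83. Chromosome 7 at 143688746 to 143689393 (648 bp) had folds of 7.46, 11.0 and 9.46, with 33, 46 and 34 tags. All 5 regions had 1 peak per naive library and summits within 26 to 80 bp of each other, and the stretch common to the 3 peaks was 370 to 501 bp long. Burned peaks were far away: the nearest lay 97.5 kb from the chromosome 14 region and 1823 kb from the chromosome 8 region. The nearest other naive-only region was 23.1 kb away on chromosome 12 and 1359 kb away on chromosome 3, so strong regions occurred both with and without a neighbour of their class.

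The edge of the class was set by weak peaks. A q-value is the p-value after correction for the number of places tested, and its -log10 is given for each peak. The least certain member was chromosome 13 at 114687353 to 114687785, where the -log10 q was 1.85 in naive library 1 but 7.77 and 12.7 in naive libraries 2 and 3. Chromosome 16 at 70050640 to 70051115 had 2.04, 12.6 and 7.12, and chromosome 8 at 32972680 to 32973195 had 3.85, 8.59 and 2.09. At each of these the weakest value came from a library other than naive library 2. Over all members the lowest -log10 q was that of naive library 1 at 1539 regions, of naive library 3 at 540 and of naive library 2 at 34. In 78 regions at least 1 library had a value under 3, and in 1322 all 3 libraries reached 5.

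Just outside the class lay regions that were lost through 1 weak burned peak. Chromosome 17 at 6525620 to 6526378 had summits of 30, 48 and 28 tags in the naive libraries (lowest fold 6.18) and a peak of 10 tags in burned library 3 (fold 3.69, -log10 q 1.96). Chromosome 4 at 74516256 to 74516902 had naive folds of 4.88, 7.40 and 8.66 and 10 tags in burned library 3 (fold 3.77, -log10 q 2.01). Chromosome 1 at 147245288 to 147246107 had naive folds of 5.86, 10.9 and 8.56 and 13 tags in burned library 3 (fold 3.57, -log10 q 2.30). At these 3 places the burned fold was below every naive fold of the same region. They were chosen for the lowest burned -log10 q among the regions with 1 burned peak. A low burned fold therefore comes with the choice. On the naive side, 1693 regions lacked only a peak of naive library 1, 595 only one of naive library 3 and 31 only one of naive library 2, with no burned peak at any of them.

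The lowest summit called at the genome background stood at 5.47, 5.22 and 5.21 times that background in burned libraries 1, 2 and 3. The naive-only regions had median summits of 7.59, 17.9 and 11.7 times the background of their own library in naive libraries 1, 2 and 3. In naive library 1, 2005 of the 2113 stood above the limit of burned library 1 and 2063 above that of burned libraries 2 and 3, and in naive libraries 2 and 3 all 2113 stood above each of them. For naive library 3 this follows from its own lowest summit of 5.57 times. The local background, which can raise the limit at a given place, is known only where a peak was called, and so is not known for the burned libraries at these regions. In the naive libraries the local background was over 3 times the genome background in all 3 at 15 regions, and under 1.5 times in all 3 at 384. It was at the genome background at 193, 13 and 61 of the 2113 regions in naive libraries 1, 2 and 3. The limits above hold only at the genome background. These counts therefore do not show whether a summit of the same height would have been called in a burned library.

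Summits of different corneas fell close together. The median distance was 44 bp between naive libraries 1 and 2, 45 bp between 1 and 3 and 37 bp between 2 and 3, short against the median common stretch of 253 bp. Between 52.9% and 58.4% of regions had summits within 50 bp in a pair of libraries, and 78.8% to 81.7% within 100 bp. The median signed offset was 0, 1 and 0 bp, so no library was shifted along the chromosome against another. Distances over 200 bp occurred at 106, 111 and 116 regions in the 3 pairs. At the 318 regions with 1 burned peak the medians were alike, at 45, 54 and 39.5 bp, and at the 163 regions with 2 or 3 burned peaks they were 23, 27 and 28 bp. Pairs of 3 libraries are not independent, and these distances were not tested.

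**Figure D2:**
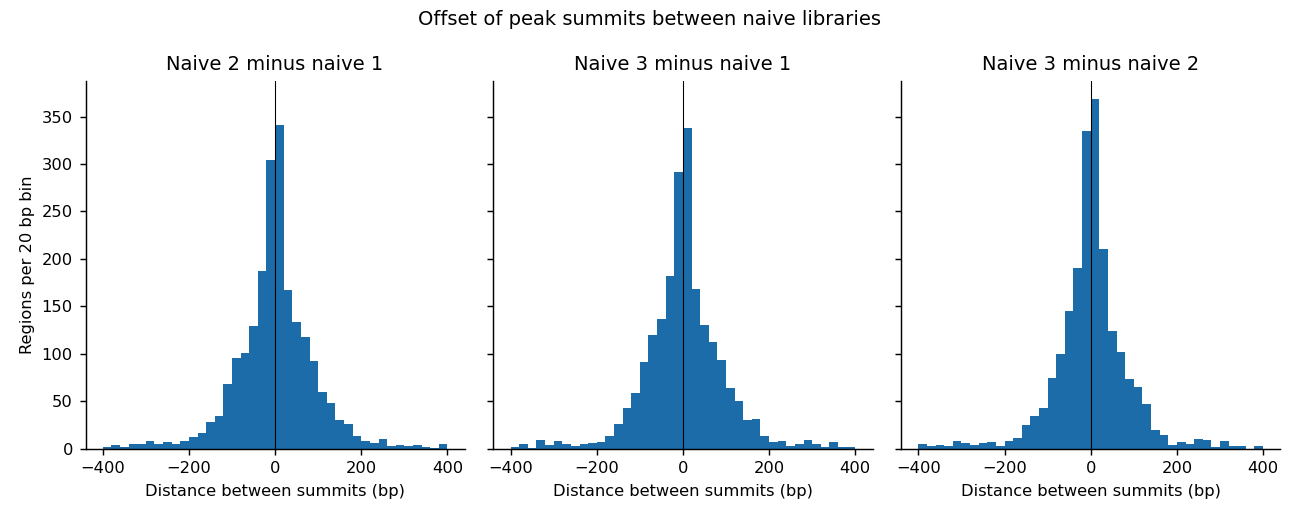
Signed distance in bp between the summits of the highest peaks of each pair of naive libraries at the 2113 naive-only regions (x axis, cut at 400 bp on either side) and the number of regions per 20 bp bin (y axis). Each distribution is centred on 0, with median offsets of 0, 1 and 0 bp.

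Regions with high fold had tighter summits. The distance from the leftmost to the rightmost of the 3 summits had a median of 76 bp over all 2113 regions. Dividing the regions into 5 groups by mean rank of fold, it was 88 bp in the group of lowest fold and 64 bp in the group of highest fold. Summits of all 3 libraries fell within 100 bp at 55.8% of the lowest group and 73.5% of the highest, although the regions of the highest group were wider (median 582 against 478 bp). Fold and summit come from the same tags, so this is a description of the lists.

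Among the 500 regions of highest mean fold rank, 479 had 1 peak in each naive library, and some of these had summits at almost the same base. On chromosome 2 at 123962758 to 123963342 all 3 summits fell on position 123963144, with folds of 6.25, 8.33 and 6.06. On chromosome 4 at 47327302 to 47327958 they lay within 1 bp (folds 5.44, 8.33 and 10.1), and on chromosome 12 at 136893099 to 136893636 within 2 bp (4.93, 11.4 and 7.78). The farthest summits of the same 479 regions were those of chromosome 13 at 60647533 to 60648120, 326 bp apart. There naive libraries 2 and 3 agreed within 2 bp (60647682 and 60647680) and naive library 1 had its summit at 60648006. On chromosome 9 at 2178645 to 2179440 naive library 3 stood apart by 297 bp, and on chromosome 8 at 33024154 to 33024779 naive library 1 by 292 bp. At each of the 3 places 1 library had its summit elsewhere in the region, while both others lay within 11 bp of each other.

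The order of the regions by fold was shared in part. Spearman's rho of fold across the 2113 regions was 0.523 between naive libraries 1 and 2, 0.521 between 1 and 3 and 0.602 between 2 and 3, and Pearson's r was 0.530, 0.549 and 0.610. With summit tags in place of fold, rho was 0.554, 0.550 and 0.645. In the same pairs, rho of fold was 0.661, 0.656 and 0.644 at the regions with 1 burned peak. It was 0.803, 0.782 and 0.825 at those with 2 or 3 burned peaks, and 0.547, 0.540 and 0.634 at naive-only regions of unplaced scaffolds. The naive-only chromosomal regions thus had the lowest rho of these classes in each pair, which was not tested. All are correlations across regions called in the same libraries, which share each library's depth and calling limit, and are given as a description.

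**Figure D3:**
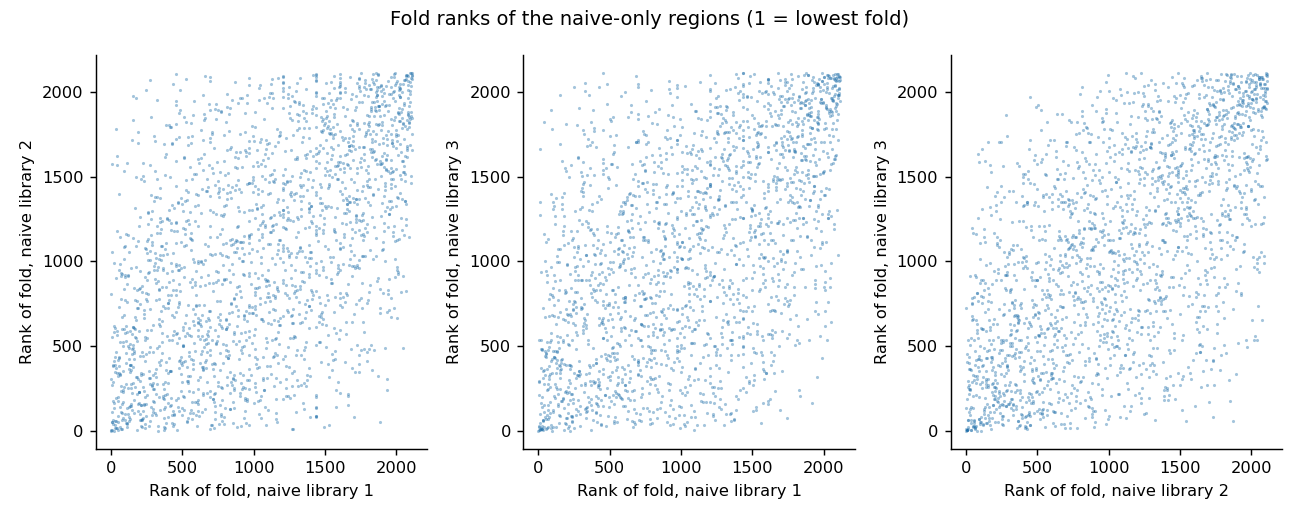
Rank of fold of each of the 2113 naive-only regions in 1 naive library against its rank in another (both axes from 1, the lowest fold), for the 3 pairs of libraries. Each point is a region. The clouds rise from lower left to upper right with rho of 0.523, 0.521 and 0.602 and are densest in both corners.

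The naive corneas shared part of both ends of this order. Of the 211 regions with the highest fold in each naive library, 58 were common to naive libraries 1 and 2, 84 to 1 and 3 and 94 to 2 and 3, and 41 to all 3. Of the 211 with the lowest fold in each, 31 were common to all 3. In all, 438 regions were in the top 211 of at least 1 library, and 3 of the 2113 regions were in the top 211 of 1 library and in the lowest 211 of another. A region high in 1 naive cornea was thus seldom among the lowest of another, although most of the 438 were in the top of fewer than 3 corneas.

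Few of the regions had another naive-only region within 10 kb. The median distance from the middle of a naive-only region to that of the next one was 184 kb, with quartiles of 70.2 and 498 kb. Another naive-only region stood within 10 kb of 74 of them (3.50%, Wilson interval 2.80 to 4.37) and within 100 kb of 682 (32.3%, 30.3 to 34.3). The share within 10 kb was 6.54% without naive library 1 and 6.23% without naive library 3, where the class is larger by construction. It was 0.860% at equal list length, where the class is smaller. Chaining members at steps of up to 10 kb gave 2039 lone regions, 33 pairs, 1 group of 3 and 1 group of 5. For the regions with 1 burned peak the distance to the nearest naive-only region was much the same (median 172 kb), with 34.3% (29.3 to 39.7) within 100 kb. For those with 2 or 3 burned peaks it was longer, with a median of 313 kb and 20.9% (15.3 to 27.7) within 100 kb. Regions are not independent samples, and these intervals cover counting error only. No random placement was drawn, so whether the naive-only regions were bunched or evenly spread was not tested.

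Neighbours of any class were nearer. The nearest other chromosomal region was a median of 27.5 kb away, and 190 regions (8.99%) had one within 1 kb. Of these 190, 133 had as nearest neighbour a region called in 1 naive library only and 9 a region with a burned peak. Over all 2113, the nearest region was another naive-only region at 15.3%, a region called in 1 naive library at 62.5%, in 2 naive libraries at 15.3% and one with a burned peak at 6.91%. These shares were close to the make-up of all chromosomal regions (13.0%, 64.9%, 14.3% and 7.86%), so the nearest neighbour was mostly of the kind that is most common.

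Burned peaks were seldom near. The median gap from the edge of a naive-only region to the nearest burned peak was 496 kb. This was not particular to the class. Between region middles, the nearest other region with a burned peak was a median of 496 kb from naive-only regions and 504 kb from those with 1 burned peak. From those with 2 or 3 burned peaks it was 195 kb. No gap was under 200 bp, 5 were within 500 bp and 12 within 1 kb. The smallest, 229 bp, was at chromosome 9, 24524381 to 24524918 (naive folds 4.31, 6.02 and 5.14). Taken by library, a naive peak outside the class lay within 100 kb of 26.0%, 80.3% and 37.0% of the regions (naive libraries 1, 2 and 3). A burned peak did so at 2.98%, 2.84% and 13.0% (burned libraries 1, 2 and 3). These shares move with the number of peaks in each list. Near misses of the overlap rule were thus few, and leaving out the 12 regions left 2101.

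**Figure D4:**
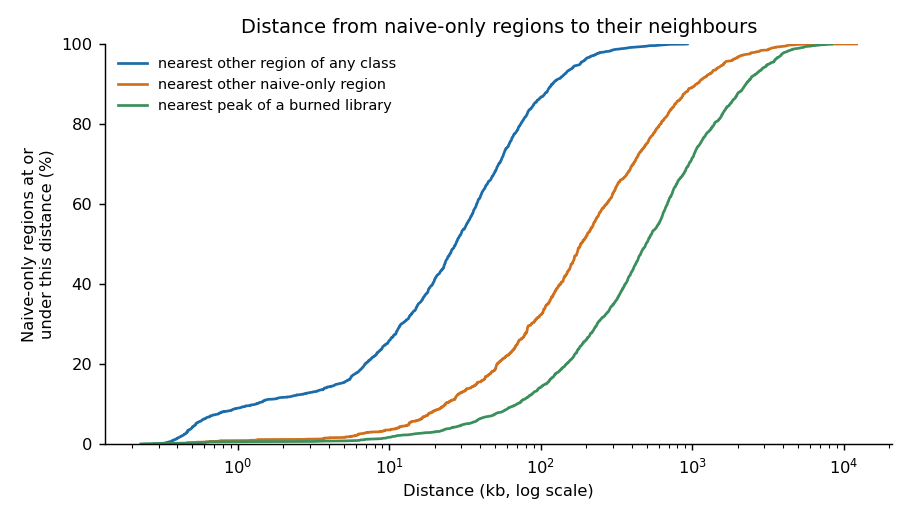
Share of the 2113 naive-only regions (y axis, %) whose neighbour lies at or under a distance in kb (x axis, log scale). The lines stand for the nearest other region of any class and the nearest other naive-only region, both between region middles, and for the nearest burned peak measured from the edges, with medians of 27.5, 184 and 496 kb.

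Some stretches were dense. The densest window of 100 kb, on chromosome 19 from 29589237 to 29649929, held 6 naive-only regions among 11 regions of any class. The first 5 followed each other at steps of 6.54, 6.20, 6.17 and 6.97 kb and the last came after 34.2 kb. The second of them, at 29595831 to 29596385, was the highest in naive libraries 1, 2 and 3, with folds of 6.08, 9.80 and 8.48. The others had folds of 3.70 to 5.24, 6.23 to 8.54 and 3.86 to 6.17 in the 3 libraries. The nearest burned peak was 115 kb from the window.

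Chromosome 12 held the next window, from 10829646 to 10915022, with 5 naive-only regions among 8. Their folds were low and even, with medians of 4.40, 5.47 and 5.10 in the 3 naive libraries and a highest value of 6.71, and their steps were uneven, from 5.92 to 41.2 kb. Chromosome 1 from 194227320 to 194294063 held 4 naive-only regions and no region of another class. The highest fold there was 10.2, in naive library 2 at 194286647 to 194287327, where naive libraries 1 and 3 had 4.87 and 7.39. No window of the 3 had a burned peak, the nearest being 340 kb and 92.8 kb from the windows on chromosomes 12 and 1. The windows were chosen by their number of members, so their density is a description.

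At the other end, long stretches had no naive-only region. These were singled out after the positions had been seen. The median gap between successive members was 452 kb, and 46 of 2092 gaps were over 5 Mb. The longest ran for 12.2 Mb on chromosome 3 from 143469058 to 155666446 and held 80 regions of other classes, 5 of them with a peak in all 3 naive libraries. The next ran for 12.1 Mb on chromosome 11 from 41341747 to 53438065, with 31 peaks of naive library 2, 2 of naive library 3 and none of naive library 1, and with 4 burned peaks. On chromosome 1, 11.6 Mb from 173559333 to 185198474 held 6, 61 and 8 naive peaks and 1, 1 and 1 burned peaks. Peaks of naive library 2 were thus present in all 3 gaps.

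Every chromosome held naive-only regions, from 11 on chromosome 21 to 195 on chromosome 1. Chromosome lengths are not in the lists, so density was taken over the span from the first to the last peak of any list, 2114 Mb in all, and averaged 0.999 regions per Mb. Chromosome 19 was the densest at 1.64 per Mb (89 regions), followed by chromosomes 13 at 1.31 (188 regions) and 5 at 1.30 (49 regions). The lowest were chromosome 11 at 0.617 (54 regions), chromosome 7 at 0.743 (129 regions) and chromosome 10 at 0.758 (34 regions). The ratio of the highest to the lowest was 2.66. Chromosome 19 stood at 1.64 times the average of all chromosomes and between 1.61 and 1.80 times under the other ways of calling regions and with any 1 library left out.

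Density mostly followed how many regions a chromosome had at all. Chromosomes 19, 11 and 13 had 11.0, 5.84 and 9.61 chromosomal regions of any class per Mb. Across the 21 chromosomes, Pearson's r between naive-only regions and all regions per Mb was 0.801 and Spearman's rho 0.814, given as a description since the former are part of the latter. Chromosome 21 departed from this, with 10.5 regions of any class per Mb, the next highest after chromosome 19, but 0.879 naive-only regions per Mb, which rests on 11 regions. Spearman's rho of the density with the span of the chromosome was -0.292.

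The naive-only share of the regions with all 3 naive peaks was lowest on chromosome 10, at 70.8% (34 of 48, Wilson interval 56.8 to 81.8), and highest on chromosome 5, at 86.0% (49 of 57, 74.7 to 92.7). The interval of each of the 21 chromosomes included the share of all chromosomes, 81.5%, though that of chromosome 10 only just. Chromosome 10 was recomputed under the other settings because its share was the lowest. These settings reuse largely the same regions, so they are not independent of each other and make no allowance for that choice. Regions are also not replicates. The intervals cover counting error only and not the spread between corneas, so they are no test of chromosome 10. In 6 of 12 of them the share of chromosome 10 had an interval wholly below the share of all chromosomes. It was 66.7% (50.3 to 79.8) against 85.6% at a -log10 q of at least 5, 54.5% (28.0 to 78.7) against 81.3% at equal list length, and 73.5% (56.9 to 85.4) against 88.0% where peaks had to cover 50% of a region. With regions built from summits plus and minus 100 bp it was 69.6% (55.2 to 80.9) against 81.6%. It was 81.2% (68.1 to 89.8) against 93.6% without burned library 3, and 68.3% (56.0 to 78.4) against 83.4% without naive library 3. In the other 6 settings the interval included the share of all chromosomes. Among these it was 81.5% (71.7 to 88.4) against 88.3% without naive library 1. Chromosome 10 had the most peaks per Mb in burned libraries 1 and 2 (0.424 and 0.312) and ranked 6 in burned library 3 (0.692). A link to its share was not tested. On chromosome 19 the share was 80.2% (71.8 to 86.5) and on chromosome 11 it was 81.8% (70.9 to 89.3), so that the densest and the sparsest chromosome had nearly the same share. Median widths of the regions by chromosome lay between 467 and 582 bp. Median folds by chromosome lay between 4.27 and 4.90 in naive library 1, 6.91 and 8.00 in naive library 2 and 5.37 and 6.17 in naive library 3, with the lowest in naive library 1 on chromosome 19 and the highest in naive libraries 1 and 2 on chromosome 11.

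**Figure D5:**
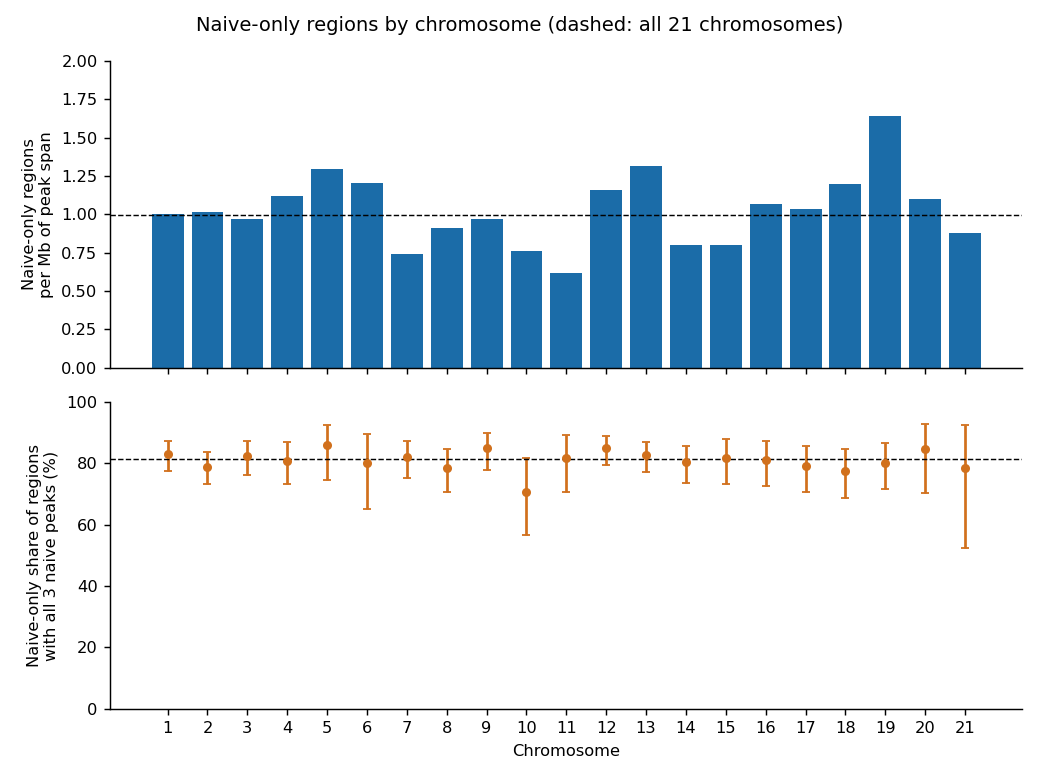
Naive-only regions per Mb of the span covered by peaks (upper panel, bars) and their share of the regions with a peak in all 3 naive libraries (lower panel, points with 95% Wilson intervals) on chromosomes 1 to 21 (x axis). Dashed lines mark all chromosomes together, 0.999 per Mb and 81.5%. Density runs from 0.617 to 1.64 per Mb, while every interval of the share includes the dashed line in this setting, that of chromosome 10 only just.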

How the data were processed

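ATAC-seq was made from 3 naive and 3 alkali-burned rabbit corneas, 30 to 50 mg of frozen tissue and about 100000 nuclei each, per the labels' protocols. The submitters' processing notes name the tools Bowtie2, SAMtools and FastQC and the build OryCun2.0. For the peak caller, duplicates and mitochondrial reads, the treatment is not given in the sources used here. Per the file layout, the authors deposited 1 list of 10 columns per library, with a position, a fold (ratio to local background) and a -log10 p and -log10 q for each peak.

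Here peaks sharing at least 1 bp were joined, and the highest peak of a library by fold stood for it in a region. Summit tags and local backgrounds were solved from fold and p under a Poisson model (fold as tags plus 1 over background plus 1), matching within 0.002 of the -log10 p for 100% of peaks. The model was not stated and rests on this match. Simulated peaks and regions served as a test of the code. Classes were compared by per-library medians with the exact sign-flip test. Shares have 95% Wilson intervals, which treat regions as independent and cover counting error only. Coordinates count from 1. The software was scipy 1.17.1, pandas 2.3.3 and numpy 2.4.6 under Python 3.11.15, with plots by matplotlib 3.10.9.

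The regions, lists and tests were chosen with earlier results of these data known. Named regions were the 5 of highest mean fold rank, the 5 widest, 3 just inside and 3 just outside the rule, the 3 densest windows of 100 kb, the 3 closest and 3 farthest in summit among the top 500, and the 3 densest and sparsest chromosomes. The region nearest a burned peak and the long gaps were added after their values were seen. Alternatives were a stricter q limit, equal list length over all sequences, coverage of 50% and joining within 200 bp. Others were regions of 100 bp around summits and leaving out each library. The gene table at hand is of another build, mOryCun1.1, and was not used.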

Additional observations from a re-analysis of the deposited data

How the results depend on the processing

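No paired analysis was possible because the labels do not tie the libraries to animals. The rule also leaves no burned peak at these regions to pair with a naive one. With 1 library left out, the number of regions ran from 2114 to 3806 (3806 without naive library 1), the summit distance from 39 to 45 bp, the mean rho of fold from 0.522 to 0.597 (0.549 with all libraries), the share with 1 peak per naive library from 93.7% to 97.8%, the share with a neighbour within 10 kb from 3.50% to 6.54% and the fold difference from -1.55 to -0.188. The width difference from regions with burned peaks ran from -122 to 74.7 bp, and turned to 74.7 bp without burned library 3. It was also 58.3 bp against regions with 2 or 3 burned peaks and 32.5 bp when peaks had to cover 50% of a region. At equal list length the number was 465, the summit distance 37 bp against 42 bp, rho 0.435, the share with 1 peak 98.7%, with a neighbour 0.860%, and the naive-only share of chromosome 10 was 54.5% against 70.8%. At a -log10 q of at least 5 the share with 1 peak was 95.9% and with a neighbour 2.34%, and 1322 of 1497 regions were among the 2113. With 50% coverage rho was 0.631 and the neighbour share 2.57%. The share with 1 peak was 87.9% with peaks joined within 200 bp and 99.5% with regions of 100 bp around summits. Neighbours within 1 and 100 kb occurred at 0.852% and 32.3%. The cause was not tested. Including chromosome X gave 2154 regions. Of 22 named members, 10 stayed in the class at equal list length and 13 with 50% coverage. The comparison by number of burned peaks and the setting without regions near a burned peak were chosen after seeing the data. Peaks under a list's own limit are not seen, so reduced and lost accessibility look the same.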
